A study of Ovis aries with 6 samples.

Results

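Versican and the hyaluronan genes are described here in sheep endothelial cells of the mitral valve (VECs), which cover the surface of its leaflets, in culture. The set holds the 7 genes with the symbols VCAN, HAPLN1, HAS2, HAS3, HYAL2, CD44 and TNFAIP6. No measured value enters that rule, but the set was drawn up with earlier results of these data known. All 7 are among the 18865 gene rows of the count table, and all 7 were among the 14326 genes that passed a filter on low counts and were tested. The study compared VECs kept for 24 h with plasma from infarcted sheep (post-MI plasma, where MI is myocardial infarction; 3 libraries) with VECs kept for 24 h with naive ovine plasma (3 libraries). The series concerns endothelial-to-mesenchymal transition after infarction. Whether a group's libraries are separate cultures, cell donors or plasma donors is not in the labels, so p-values measure no more than the spread among 3 and 3 libraries, and that spread may be technical.

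Hyaluronan is a very long unbranched sugar chain that HAS enzymes extrude through the plasma membrane. Versican, a large chondroitin sulphate proteoglycan, binds hyaluronan through its N-terminal globular domain, and a link protein such as HAPLN1 locks the pair together. The resulting hydrated gel fills the spongy layer of valve leaflets, and in the mouse embryo loss of Has2 or Vcan prevents the formation of the cushions from which valves grow. TNFAIP6 (TSG-6) transfers heavy chains of inter-alpha-inhibitor onto hyaluronan, CD44 anchors hyaluronan to the cell surface, and HYAL2 takes part in cutting it into fragments.

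Total counts were 14858472 to 20672794 per library. One naive library stood apart from the rest: in a principal component analysis of the 500 most variable genes, the first component (59.2% of variance) put naive replicate 1 at -52.3, with the remaining 5 libraries at -0.50 to 18.5. On the second component (17.7%), post-MI replicate 3 lay at -20.5, while post-MI replicates 1 and 2 lay at 17.5 and 13.0. All 12 endothelial markers checked, PECAM1 and CDH5 among them, had more than 3 counts in every library. So did all 10 markers of fibroblasts and valve interstitial cells, such as COL1A1 and PDGFRB. Values below are CPM, read counts scaled to a common library total with TMM factors. Every log2 fold change is post-MI over naive plasma from the quasi-likelihood test of edgeR, and every adjusted p is from that test, by Benjamini-Hochberg over all genes tested.

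No gene of the set passed the test: 0 of the 7 had an adjusted p under 0.05, as did 0% of all genes tested (0 of 14326 by edgeR, 0 by limma-voom and 221, or 1.51%, by DESeq2, which called 0 of the 7). At an unadjusted p of 0.05 edgeR gave 2 of the 7, VCAN and HAS3, against a background of 8.68% of genes tested (1244 genes). In CPM, HAS3 was higher in all 3 post-MI libraries than in any naive library, as were 8.32% of genes tested. VCAN was lower in all 3 post-MI libraries than in any naive library, as were 7.82% of genes tested. The other 5 genes overlapped between the groups, so 2 of the 7 were free of overlap when both directions are counted, against 16.1% of genes tested. Over the 7 genes, 5 log2 fold changes were above and 2 below 0, with a median of 0.06; over all genes tested 52.1% were below 0 and the median was -0.01.

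**Figure D1:**
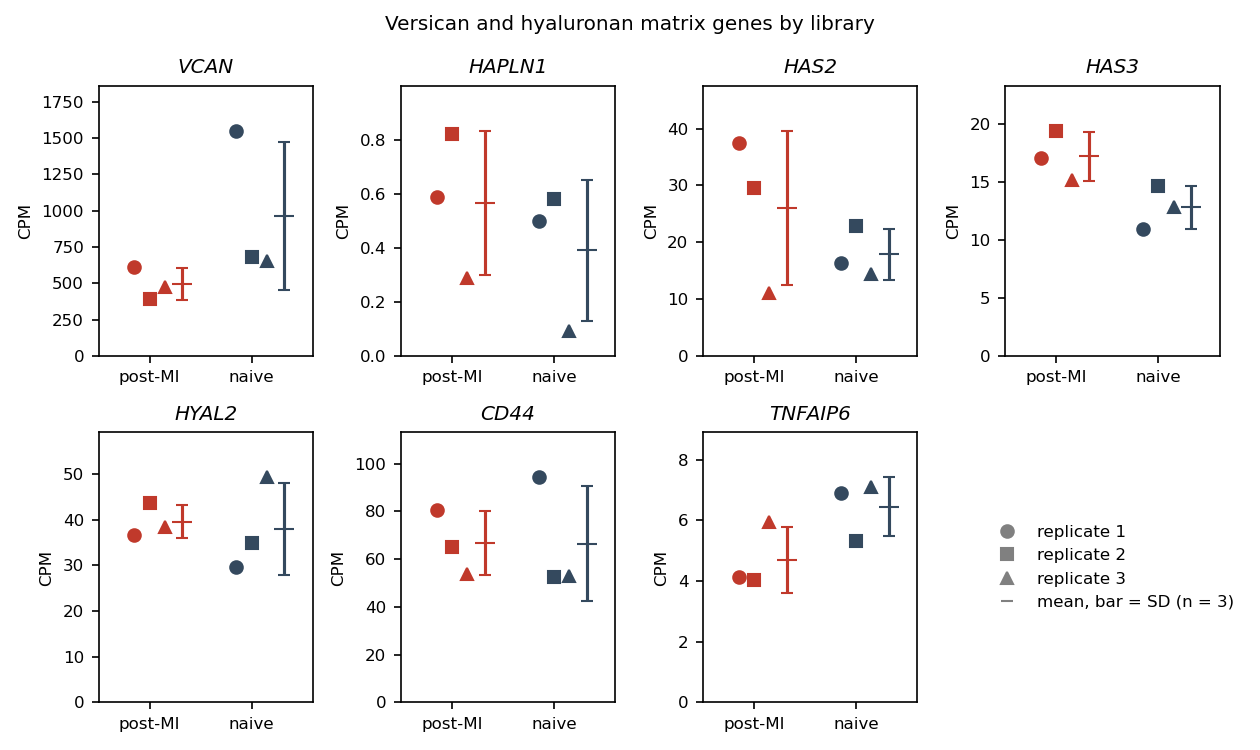
CPM of each of the 7 genes in each library (points, with replicate numbers as shapes), post-MI plasma on the left and naive plasma on the right of each panel, with the mean and SD of 3 libraries beside them. Each vertical axis starts at 0 and has its own range; VCAN in naive replicate 1 (1547 CPM) stands far above the other 5 libraries (394 to 684 CPM), and HAS3 is the 1 gene with every post-MI point above every naive point.

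Versican was lower in each post-MI library than in each naive library, a difference that did not pass the test and whose size rested in large part on 1 naive library. VCAN was at 613, 394 and 477 CPM in post-MI replicates 1, 2 and 3, and at 1547, 684 and 654 CPM in naive replicates 1, 2 and 3. The groups did not overlap, but they came close: the lowest naive library was 1.07 times the highest post-MI library, whereas naive replicate 1 was 2.26 times the next highest library. Group means were 495 ± 111 CPM with post-MI and 961 ± 508 CPM with naive plasma (SD, n = 3 each). The log2 fold change was -0.96 ± 0.37 (SE; adjusted p = 0.566), a fold of 0.515 with a 95% interval of 0.282 to 0.939 that is not adjusted for the number of genes. Without naive replicate 1 it was -0.42 (adjusted p = 0.649), and the post-MI mean was then 0.740 times the mean of the remaining naive libraries, 669 CPM. With all libraries kept, the 2.26-fold step within the naive group was thus larger than the difference between the group means. Without naive replicate 1 that step is absent, and the remaining naive libraries lay close together, at 684 and 654 CPM.

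Markers of cell types were read beside this difference. Endothelial markers had 10 positive log2 fold changes among 12, with a median of 0.44, and 5 had an unadjusted p under 0.05, against 8.68% of genes tested; 0 passed. They summed to 3168 to 4483 CPM in the post-MI libraries and 3036 to 3415 CPM in the naive libraries, with 3415 CPM in naive replicate 1. The tight junction gene CLDN5 had the largest log2 fold change of these 12 markers, at 2.27. It was at 14.1, 20.2 and 5.14 CPM in post-MI replicates 1, 2 and 3 and at 0.200, 3.53 and 4.42 CPM in naive replicates 1, 2 and 3. The 2 endothelial markers with negative log2 fold changes were KDR (-0.29) and TEK (-0.31). Both were highest in naive replicate 1, at 82.8 and 128 CPM. Without naive replicate 1, 11 of the 12 endothelial log2 fold changes were positive, with a median of 0.39. The 8 tested smooth muscle and pericyte markers (ACTA2 and TAGLN among them) all had positive log2 fold changes, and summed levels of that list were 4610 to 6299 CPM in the post-MI libraries and 928 to 5111 CPM in the naive libraries, with 928 CPM in naive replicate 1. Without naive replicate 1, 7 of these 8 log2 fold changes were positive, with a median of 0.50. RGS5, a pericyte marker, had 0 counts in all 6 libraries. The fibroblast and valve interstitial list summed to 13583 to 18296 CPM with post-MI and 8023 to 19892 CPM with naive plasma. Naive replicate 1 was again the lowest at 8023 CPM, most of it from COL1A1, COL1A2 and COL3A1 (3172, 2153 and 2483 CPM). PDGFRA had its highest level in that library (58.6 CPM) and PDGFRB its lowest (93.8 CPM). Of the list's 10 log2 fold changes, 3 were positive. Without naive replicate 1, 1 was positive and 9 negative, with a median of -0.28. In that fit 4 of the 10 were lower with post-MI plasma without overlap and 0 higher. Of all genes tested, 24.8% did not overlap. Leukocyte markers summed to 37.8 to 45.5 CPM with post-MI and 38.6 to 62.8 CPM with naive plasma. The red cell and platelet genes PPBP, ALAS2 and HBM were at 0 in every library. From the same list, ITGA2B was at 3.46 to 5.90 CPM with post-MI and 4.98 to 5.36 CPM with naive plasma. TUBB1 had at most 3 counts in any library. The part of any of these marker lists in the VCAN difference was not tested. In bulk RNA, fewer cells of a type and less RNA per cell cannot be told apart.

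The link protein gene HAPLN1 was close to the limit of detection. It had 11, 12 and 5 counts in post-MI replicates 1, 2 and 3 and 10, 10 and 2 counts in naive replicates 1, 2 and 3. In CPM these were 0.590, 0.820 and 0.289 in the post-MI and 0.50, 0.579 and 0.0940 in the naive libraries, where 3 counts equal 0.141 to 0.205 CPM. In each group replicate 3 was the lowest, and the groups overlapped. The log2 fold change of 0.54 ± 0.70 (SE; adjusted p = 0.820) had a 95% interval from a fold of 0.459 to one of 4.59, the widest of the 7. Among its relatives, HAPLN3 was counted in all libraries, at 9.77 to 14.2 CPM with post-MI and 7.21 to 9.84 CPM with naive plasma (log2 fold change 0.40 ± 0.22, SE; adjusted p = 0.597). The other lecticans and link proteins checked (ACAN, BCAN, NCAN, HAPLN2 and HAPLN4) did not pass the count filter, which left VCAN as the 1 lectican tested.

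The hyaluronan synthases HAS2 and HAS3 both had positive log2 fold changes, and they differed in how the libraries lay. HAS2, the main synthase of the embryonic heart in mice, was at 37.5, 29.6 and 11.1 CPM in post-MI replicates 1, 2 and 3, and at 16.3, 22.9 and 14.5 CPM in naive replicates 1, 2 and 3. The post-MI libraries held both the highest values and the lowest, so the groups overlapped. The means were 26.1 ± 13.5 CPM with post-MI and 17.9 ± 4.46 CPM with naive plasma (SD, n = 3 each), and the log2 fold change was 0.54 ± 0.42 (SE; adjusted p = 0.689; fold 1.46, 95% interval 0.733 to 2.90).

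The low HAS2 value came from post-MI replicate 3, the library that lay apart on the second principal component. Without it, HAS2 did not overlap between the groups and its log2 fold change was 0.91 (adjusted p = 0.373), the largest among the fits that left out 1 library; in that fit 32% of all genes tested did not overlap either. Without post-MI replicate 1 the log2 fold change was 0.19, the smallest.

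HAS3, which makes hyaluronan of shorter chain length, had a small and even difference. It was at 17.0, 19.4 and 15.2 CPM in post-MI replicates 1, 2 and 3, and at 11.0, 14.6 and 12.9 CPM in naive replicates 1, 2 and 3. Every post-MI library was above every naive library, with the lowest post-MI value 1.04 times the highest naive value. The means were 17.2 ± 2.11 CPM with post-MI and 12.8 ± 1.84 CPM with naive plasma (SD, n = 3 each), and the log2 fold change was 0.42 ± 0.18 (SE; adjusted p = 0.566; fold 1.34, 95% interval 1.01 to 1.79). With single libraries left out the log2 fold change ran from 0.33 to 0.53.

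The third synthase gene, HAS1, was counted at low levels, with 30, 23 and 17 counts in post-MI replicates 1, 2 and 3 and 40, 26 and 33 counts in naive replicates 1, 2 and 3 (log2 fold change -0.28 ± 0.33, SE; adjusted p = 0.801). The ratio of HAS2 to HAS3 counts within a library, which depends on transcript length and is read only between libraries, was 2.20, 1.52 and 0.734 in post-MI replicates 1, 2 and 3. It was 1.48, 1.57 and 1.12 in naive replicates 1, 2 and 3, inside the post-MI range.

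**Figure D2:**
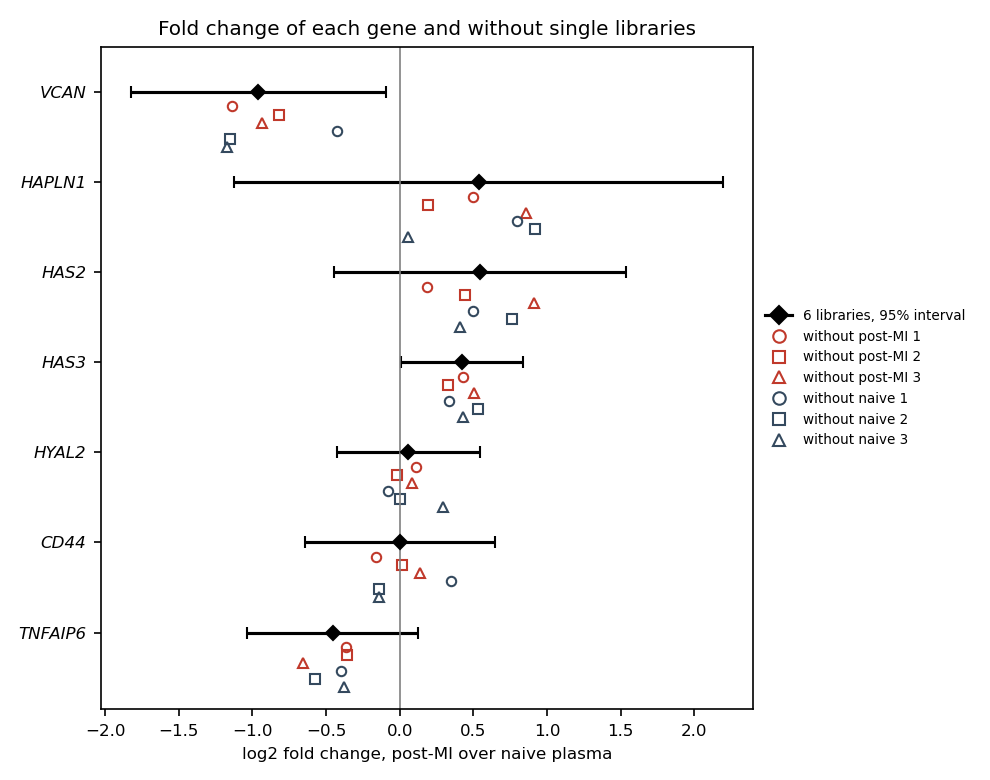
Log2 fold change of each gene, post-MI over naive plasma, with 6 libraries (black diamonds, bars are 95% intervals not adjusted for the number of genes) and with each single library left out (open symbols, red for post-MI and dark blue for naive libraries). VCAN moves from -0.96 to -0.42 without naive replicate 1, HAS3 stays between 0.33 and 0.53, and the CD44 and HYAL2 symbols fall on both sides of 0.

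The hyaluronidase HYAL2, a membrane-anchored enzyme, had close group means. It was at 36.7, 43.6 and 38.3 CPM in post-MI replicates 1, 2 and 3, and at 29.6, 34.9 and 49.2 CPM in naive replicates 1, 2 and 3. The naive libraries held the lowest and the highest value, and the post-MI libraries lay between them. The log2 fold change was 0.06 ± 0.20 (SE; adjusted p = 0.941), with a 95% interval of 0.746 to 1.46 in fold, and its sign turned without naive replicate 1 (-0.08) or post-MI replicate 2 (-0.02).

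CD44, the main cell surface receptor for hyaluronan, had nearly equal group means, 66.6 ± 13.5 CPM with post-MI and 66.5 ± 23.9 CPM with naive plasma (SD, n = 3 each). The libraries behind these means were at 80.8, 65.2 and 53.9 CPM in post-MI replicates 1, 2 and 3, and at 94.2, 52.6 and 52.9 CPM in naive replicates 1, 2 and 3. Naive replicate 1 was the highest of the 6, and both other naive libraries were below every post-MI library. The log2 fold change was 0.00 ± 0.27 (SE; adjusted p = 0.999; fold 1.0, 95% interval 0.642 to 1.56). Without naive replicate 1 the groups did not overlap and the log2 fold change was 0.35 (adjusted p = 0.685), where 24.8% of all genes tested did not overlap.

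TNFAIP6, a secreted hyaluronan-binding protein induced in inflammation, was counted at 77, 59 and 103 reads in post-MI replicates 1, 2 and 3 and at 138, 92 and 151 reads in naive replicates 1, 2 and 3. In CPM these were 4.13, 4.03 and 5.95 in the post-MI and 6.91, 5.33 and 7.10 in the naive libraries. The groups overlapped through post-MI replicate 3, which lay above naive replicate 2. The means were 4.70 ± 1.08 CPM with post-MI and 6.44 ± 0.971 CPM with naive plasma (SD, n = 3 each), and the log2 fold change was -0.45 ± 0.25 (SE; adjusted p = 0.595; fold 0.730, 95% interval 0.488 to 1.09). All fits that left out 1 library kept a negative sign, from -0.66 without post-MI replicate 3 to -0.36 without post-MI replicate 2.

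The libraries ordered differently from gene to gene. Naive replicate 1 was the highest library for VCAN (1547 CPM) and CD44 (94.2 CPM) and the lowest for HAS3 (11.0 CPM) and HYAL2 (29.6 CPM). Naive replicate 3 was the highest for HYAL2 (49.2 CPM) and TNFAIP6 (7.10 CPM) and the lowest for HAPLN1. Post-MI replicates 1 and 2 were the highest pair for HAS2 (37.5 and 29.6 CPM), HAS3 and HAPLN1. The ratio of the highest to the lowest library was 3.93 for VCAN and 3.36 for HAS2, and 1.66 to 1.79 for HAS3, HYAL2, CD44 and TNFAIP6. For HAPLN1 it was 8.72, which rests on 2 counts in the lowest library.

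Genes with the most similar profile over the 6 libraries were sought among 10975 tested genes, by the root mean square difference of mean-centred log2 CPM. Genes of low average level and those with provisional symbols were left out of the search. For VCAN, whose own SD over the libraries was 0.68 log2 units, they were KBTBD8 (difference 0.11), ERO1A, an oxidase of the endoplasmic reticulum (0.13), and SLC23A2, a vitamin C transporter (0.16). For HAS2 they were C19orf54 (0.17), the Golgi GTPase RAB30 (0.19) and the GTPase RHOU (0.21). For CD44 they were COA4 (0.05), MIDN (0.07) and PELI1 (0.08), and for TNFAIP6 OSTM1 (0.06), TENT4B (0.07) and C2H2orf76 (0.08). These are descriptions of shape over 6 libraries, and likeness was not tested. The VCAN profile rested in large part on naive replicate 1, which was 2.26 times the next highest library.

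A wider list of 70 genes of versican and hyaluronan metabolism was read in the same fit, of which 54 were tested. None of them (0 of 54) passed in either direction. Log2 fold changes were above 0 for 27 and below 0 for 27, with a median of -0.01, as over all genes. The groups were free of overlap in CPM for 6 genes with post-MI plasma above naive and for 4 with it below, and for 8 and 9 genes when naive replicate 1 was left out. The shares over all genes tested, both directions counted, were 16.1% and 24.8%, so the first of these counts was near the background. Without that library 20 log2 fold changes were positive and 34 negative, with a median of -0.10 against 0.00 for all genes.

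Genes that supply sugar nucleotides for hyaluronan had 3 positive and 6 negative log2 fold changes among 9. Of these, 2 did not overlap between the groups, both lower with post-MI plasma, as were 7.82% of all genes tested. PGM3, a phosphomutase on the route to UDP-N-acetylglucosamine, was at 32.8, 38.3 and 42.5 CPM in post-MI replicates 1, 2 and 3 and at 48.9, 50.3 and 56.4 CPM in naive replicates 1, 2 and 3 (log2 fold change -0.45 ± 0.14, SE; adjusted p = 0.533). GFPT1, the first and rate-limiting enzyme of that route, averaged 34.1 ± 3.33 CPM with post-MI and 43.6 ± 3.16 CPM with naive plasma (SD, n = 3 each; log2 fold change -0.35 ± 0.13, SE; adjusted p = 0.566). Both log2 fold changes were near these values without naive replicate 1, at -0.49 for PGM3 and -0.39 for GFPT1.

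Among 7 tested genes of hyaluronan breakdown, CEMIP had the largest difference of the whole wider list. CEMIP is a hyaluronan-binding protein needed for hyaluronan depolymerisation in human skin fibroblasts. It was at 17.3, 32.8 and 74.2 CPM in post-MI replicates 1, 2 and 3, and at 164, 94.9 and 169 CPM in naive replicates 1, 2 and 3. The groups did not overlap. The log2 fold change was -1.78 ± 0.52 (SE; adjusted p = 0.491), and it ran from -2.51 without post-MI replicate 3 to -1.41 without post-MI replicate 1, with -1.67 without naive replicate 1.

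Hyaluronan receptors and binders had 3 positive and 2 negative log2 fold changes among 5 tested. HMMR, a hyaluronan-binding protein that also sits on the mitotic spindle, was at 38.6, 26.8 and 34.3 CPM in post-MI replicates 1, 2 and 3 and at 19.7, 19.1 and 7.75 CPM in naive replicates 1, 2 and 3. The groups did not overlap, and the log2 fold change was 1.10 ± 0.35 (SE; adjusted p = 0.533), or 0.78 without naive replicate 3. STAB1, a scavenger receptor of endothelium and macrophages, gave 0.73 ± 0.31 (SE; adjusted p = 0.566), with 140 CPM in post-MI replicate 3 inside the naive range of 82.9 to 155 CPM. LYVE1, the hyaluronan receptor of lymphatic endothelium, had at most 0.188 CPM in any library and was not tested.

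Of 7 genes listed around hyaluronan crosslinking, not all of which crosslink it themselves, 3 were tested, with 1 positive and 2 negative log2 fold changes. PTX3, a pentraxin that organises the hyaluronan matrix around the oocyte in mice, was at 233, 140 and 376 CPM in post-MI replicates 1, 2 and 3 and at 766, 448 and 248 CPM in naive replicates 1, 2 and 3. The groups overlapped, and the log2 fold change of -0.96 ± 0.48 (SE; adjusted p = 0.579) was -0.47 without naive replicate 1. ITIH4 gave -0.51 ± 0.36 and ITIH2, a heavy chain of inter-alpha-inhibitor, 0.16 ± 0.44 (SE). The sign of ITIH2 turned without naive replicate 1 (-0.15), and ITIH4 was at -0.11 without naive replicate 3. ITIH1 and AMBP had 0 counts in all 6 libraries. ITIH2 itself was low, at 1.5 to 2.32 CPM with post-MI and 0.851 to 2.49 CPM with naive plasma.

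**Figure D3:**
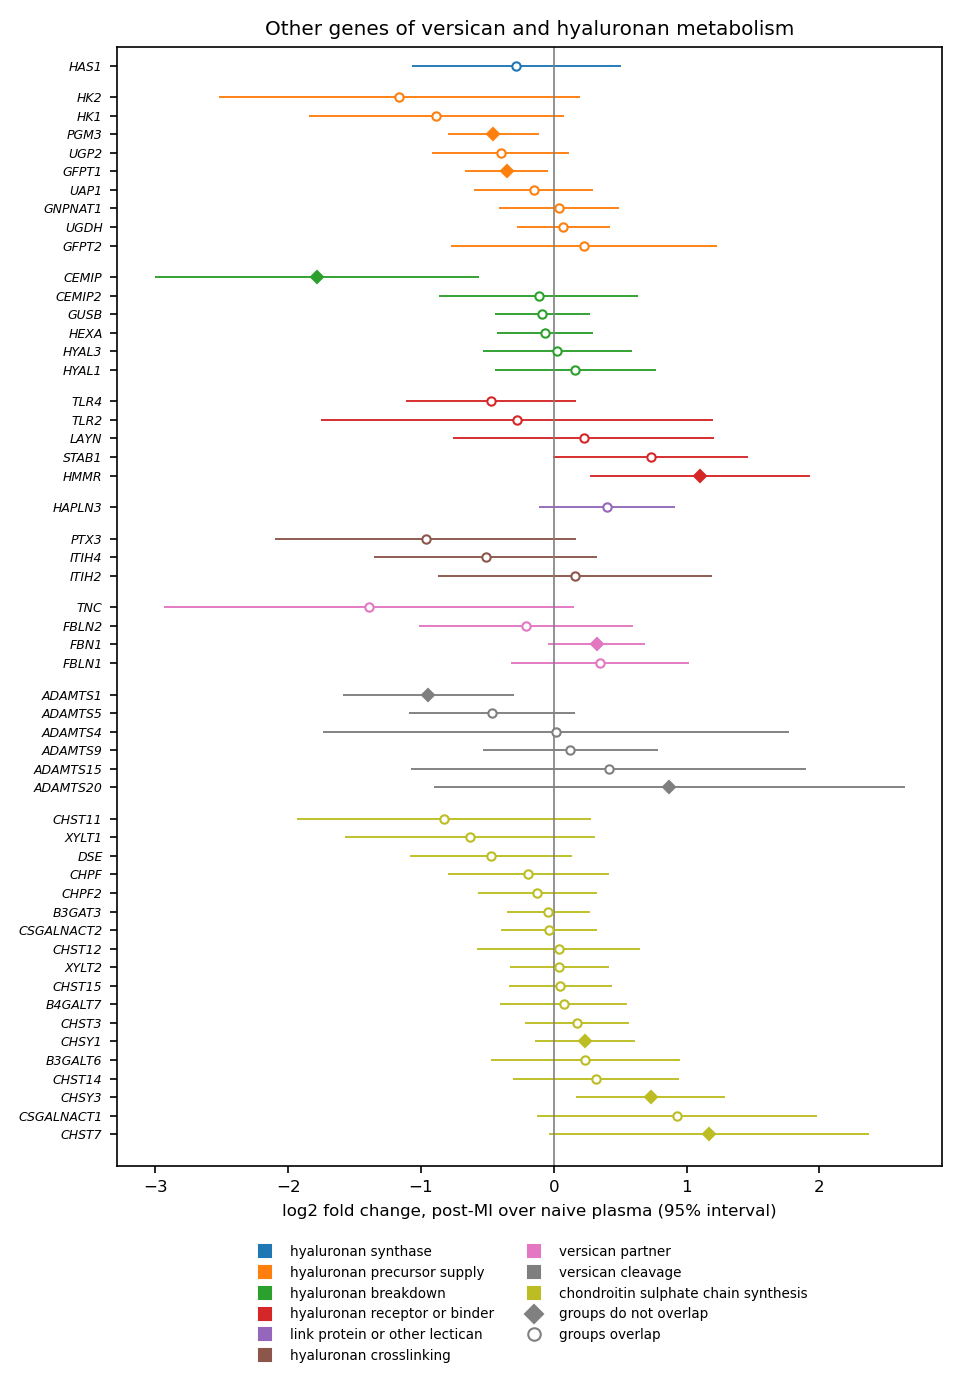
Log2 fold changes, post-MI over naive plasma, of 53 of the 54 tested genes of the wider list, grouped and coloured by role, with 95% intervals not adjusted for the number of genes; filled diamonds are genes whose CPM did not overlap between the groups. CEMIP lies farthest from 0 at -1.78, ADAMTS1 and HMMR are at -0.94 and 1.10, and no gene passed the adjusted test.

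Versican's protein partners and proteases had log2 fold changes of both signs. FBN1, the microfibril protein fibrillin-1, to which versican binds, was at 931, 772 and 753 CPM in post-MI replicates 1, 2 and 3 and at 706, 650 and 607 CPM in naive replicates 1, 2 and 3 (log2 fold change 0.32 ± 0.15, SE; adjusted p = 0.570), without overlap. TNC, the matrix protein tenascin C, stood at -1.39 ± 0.65 on the log2 fold scale (SE; adjusted p = 0.570). It was -0.18 without naive replicate 1, which held 390 CPM against 55.1 to 96.8 CPM in the other 5 libraries. ADAMTS1, a protease that cleaves versican, was at 41.9, 56.7 and 86.9 CPM in post-MI replicates 1, 2 and 3 and at 130, 99.0 and 128 CPM in naive replicates 1, 2 and 3. These did not overlap, and the log2 fold change was -0.94 ± 0.27 (SE; adjusted p = 0.491), or -0.87 without naive replicate 1. ADAMTS5, another versican-cleaving protease, gave -0.47 ± 0.26 (SE; adjusted p = 0.609). Of 6 such proteases tested, ADAMTS1 and ADAMTS5 had negative and the other 4 positive log2 fold changes, with a median of 0.07. ADAMTS20 was higher in all 3 post-MI libraries (17.63 to 20.42 CPM) than in any naive library (1.10 to 17.60 CPM). Such a pattern held for 8.32% of genes tested. The ADAMTS20 log2 fold change was 0.87 ± 0.75 (SE, adjusted p = 0.723), or 0.35 without naive replicate 1. ADAMTS20 is named here after its values were seen.

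The genes that build the chondroitin sulphate chains of versican had 11 positive and 7 negative log2 fold changes among 18 tested, with a median of 0.05. Without naive replicate 1 there were 7 positive and 11 negative, with a median of -0.07. CHSY3, a chain-extending synthase, was at 20.2, 20.2 and 14.0 CPM in post-MI replicates 1, 2 and 3 and at 13.9, 10.02 and 8.83 CPM in naive replicates 1, 2 and 3 (log2 fold change 0.73 ± 0.24, SE; adjusted p = 0.539). CHST7, a sulphotransferase, gave 1.17 ± 0.51 (SE; adjusted p = 0.566) at 1.96 to 3.22 CPM with post-MI and 0.450 to 1.85 CPM with naive plasma. CHSY1, CHSY3 and CHST7 were the 3 genes of this role without overlap among the 18, all higher with post-MI plasma, a count near the 16.1% of all genes tested that did not overlap in one direction or the other. Without naive replicate 1 the role had 3 genes higher and 4 lower without overlap among 18, where 24.8% of all genes tested did not overlap in one direction or the other. CHSY1 is named here after its values were seen.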

How the data were processed

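The submitters' processing notes name the build Oar_v3.1 and the tools featureCounts 2.0.0, STAR 2.5.2b, DESeq2 1.26.0, MultiQC 1.5, SAMtools 1.9 and FastQC. Per the labels' protocols, libraries were stranded mRNA libraries read as paired ends of 150 bp. For the annotation and the strand setting, the sources used here give nothing, so reads of antisense or overlapping genes cannot be told apart. The authors deposited raw counts per gene symbol, and per-library files of a signal, which was each count over a single factor (1 per library; 100% of non-zero values within 0.01%), equal to the DESeq2 size factor computed here. No coordinates are given because the reference table has another build; all 7 symbols were found in it.

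Counts were analysed in R 4.3.3 with edgeR 4.0.16: filterByExpr (minimum count 10, minimum total 15), TMM, quasi-likelihood test, Benjamini-Hochberg threshold 0.05. The SE is the size of the log2 fold change divided by the root of the F statistic. CPM are counts over TMM-scaled library totals, and the floor of 3 counts covers counting error only. Principal components and profile likeness used log2 CPM with a prior count of 2. Alternatives were DESeq2 1.42.0, limma-voom (limma 3.58.1), other scalings and filters, robust dispersion, a replicate block and each library left out. The test was tried on simulated data. No 2 libraries agreed within sampling noise. The genes and lists were chosen with earlier results of these data known. From the wider list the text names the 2 genes with the smallest p per role with 4 or more tested genes, all tested genes of smaller roles, genes at or near 0, and a few marker genes. One gene of that list is not reported here.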

Additional observations from a re-analysis of the deposited data

How the results depend on the processing

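The DESeq2 Wald test called 221 genes over the whole table (153 higher and 68 lower with post-MI plasma), where edgeR and the other alternatives called 0; of the 7 genes 0 were called under any alternative. Of 97 refitted log2 fold changes of the 7 genes, 90 kept their sign and 7 turned it, all of them CD44 or HYAL2. CD44 gave -0.019 with plain library totals and -8.7e-05 with a filter of 1 CPM in 3 libraries, which HAPLN1 did not pass. With single libraries left out CD44 ran from -0.16 to 0.35 and HYAL2 from -0.083 to 0.29. Over all alternatives the edgeR, DESeq2 or limma adjusted p ran from 0.255 (DESeq2) to 0.969 for VCAN and from 0.425 to 0.969 for HAS3. Deviations of same-numbered libraries correlated at 0.15, -0.11 and 0.09 over genes for replicates 1, 2 and 3. Those of differently numbered libraries correlated at -0.31 to 0.24. With 3 libraries per group these values cannot decide whether the numbers pair the libraries. With the replicate number as a block edgeR called 0 genes, VCAN gave -0.86, HAS2 0.41 and HAS3 0.43, and no call changed. In that block fit the SE of VCAN was 0.22 (edgeR adjusted p = 0.509), against 0.37 without the block. The 95% intervals, from 0.459 to 4.59 in fold for HAPLN1 and from 0.746 to 1.46 for HYAL2, limit the differences that 3 libraries per group could show.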

Other observations

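STAB2, a hyaluronan scavenger receptor of liver and lymph node sinus endothelium, had 84 counts (4.20 CPM) in naive replicate 1 and 0 counts in the other 5 libraries, where 3 counts equal 0.141 to 0.205 CPM. It did not pass the count filter and was named after its values were seen.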
